A study of Homo sapiens with 2 samples.

Results

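The loci of ABL1, ABL2 and BCR were described by the LDB1 peaks with a midpoint inside the gene or less than 50 kb from either end. LDB1 is a nuclear adaptor that brings transcription factors on enhancers and promoters together. The peaks came from CUT&Tag, in which an antibody tethers a transposase to chromatin so that DNA beside the target is tagged and sequenced. The series held 1 library made with an LDB1 antibody and 1 made with IgG, both from untreated NB4 cells, an acute promyelocytic leukaemia line known for its PML::RARA fusion. These loci held 110 of the 53742 deposited LDB1 peaks, with 45 at ABL1, 10 at ABL2 and 55 at BCR. All 3 genes had peaks, as did 86.1% of 19974 protein-coding genes by the same rule, so the presence of a peak says nothing particular about them. The peaks were chosen by their position, and the genes were selected on where their peaks lie and how dense they are, so all values are a description without a test. With no second LDB1 library no value has a replicate check, and no peaks of the IgG library were analysed here. All coordinates are hg38, counted from 1.

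ABL1 and ABL2 encode closely related non-receptor tyrosine kinases that act on the actin cytoskeleton, and ABL1 also acts in the nucleus. BCR encodes a large signalling protein that binds itself through a coiled coil at its start. In the Philadelphia translocation of chronic myeloid leukaemia the upstream part of BCR is joined to the downstream part of ABL1, which gives the constantly active BCR::ABL1 kinase. That fusion is carried by lines such as K562 and is not among the features that NB4 is known for, and the labels name no BCR::ABL1 for these cells. In the data, peaks were dense on the upstream side of a point in BCR. At ABL1 they were more frequent after the first peak in the gene than before it, and densest past its downstream end. These are the sides that this fusion joins, and the points were picked after seeing the data. A peak list holds neither reads across a junction nor copy number, so the presence of the fusion, the number of copies of either locus and the identity of the line were not tested. No expression was measured, so the labelled cell type could be set beside lineage genes only by their LDB1 peaks. Of 12 erythroid genes, such as GATA1 and SLC4A1, 11 had a peak within 50 kb, with a median of 12 peaks, and of 12 granulocyte genes, such as MPO and ELANE, 11 did, with a median of 12.5, beside a median of 3 for all protein-coding genes. These lineage genes were chosen with earlier results known, and the lists had like counts. No peak was listed over 9.29 Mb of chromosome 9 (19896035 to 29189325) around CDKN2A, a cell cycle inhibitor gene that K562 is known to lack. Of 52742 gaps between neighbouring peaks 4 were as long, this one included, and the part of DNA loss in it was not tested. CDKN2A too was chosen with earlier results known, and its gap is no test of which line the cells are.

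The promoter sequences are shown first because the genes differed in whether an LDB1 peak lay over them. RefSeq's promoter table (GRCh38.p14) held all 3 genes and gives 1 transcription start for each. For BCR this start was the upstream end of the gene, while for ABL1 it lay 122.21 kb and for ABL2 86.60 kb inside the gene. Each sequence is the 250 bases before that start, written 5′ to 3′ on the strand of the gene, with CG dinucleotides in capitals.
ABL1 (chr9:130835004-130835253, plus strand): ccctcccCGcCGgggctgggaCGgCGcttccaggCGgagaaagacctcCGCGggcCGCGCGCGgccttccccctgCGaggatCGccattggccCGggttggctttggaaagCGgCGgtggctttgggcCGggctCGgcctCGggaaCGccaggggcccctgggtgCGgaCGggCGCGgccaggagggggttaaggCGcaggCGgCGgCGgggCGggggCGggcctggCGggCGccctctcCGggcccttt
BCR (chr22:23180259-23180508, plus strand): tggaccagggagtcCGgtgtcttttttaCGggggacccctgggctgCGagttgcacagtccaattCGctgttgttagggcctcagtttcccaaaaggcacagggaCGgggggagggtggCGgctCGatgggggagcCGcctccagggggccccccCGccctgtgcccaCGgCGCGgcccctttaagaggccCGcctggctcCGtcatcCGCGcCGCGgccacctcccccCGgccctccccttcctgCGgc
ABL2 (chr1:179143077-179143326, minus strand): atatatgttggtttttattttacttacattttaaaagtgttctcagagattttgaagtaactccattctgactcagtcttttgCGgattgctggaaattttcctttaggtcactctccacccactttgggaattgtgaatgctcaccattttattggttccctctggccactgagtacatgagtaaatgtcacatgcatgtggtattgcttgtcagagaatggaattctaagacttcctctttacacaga
All 250 bases of the ABL1 sequence lay under a peak, as did 184 of the 250 bases of BCR, and none of ABL2 did. The ABL1 sequence held 33 CG dinucleotides with 78.4% G or C, the BCR sequence 20 with 70.8%, and the ABL2 sequence 1 with 37.6%. The median of 15812 protein-coding promoters of this length was 17 CG dinucleotides with 62.4% G or C. Thus the ABL1 and BCR sequences, above these medians, were at least partly under a peak, and the ABL2 sequence, below them, was not. As many CG were held by 10.5% of such promoters for ABL1, 43.3% for BCR and 96.9% for ABL2. The BCR sequence was therefore near the middle in its CG count. Each sequence covers only 1 start of its gene. At the upstream end of the gene ABL2 had a 739 bp peak and ABL1 had none. Neither GATAA, a core of GATA factor sites, nor CAGNTG, a form of the E-box read by basic helix-loop-helix factors, was found on either strand of these sequences. Of all such promoters, 16.5% held GATAA and 39.8% held CAGNTG.

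BCR, on the plus strand of chromosome 22 (23180509 to 23318037, 137.5 kb), was the most densely occupied of these genes. Its body held 40 peaks, or 29.08 per 100 kb. Of 3351 protein-coding genes of at least 100 kb, 9 had as many per 100 kb with BCR itself counted, a background of 0.269%, and the median was 0.81 per 100 kb. Peaks covered 25.29% of the body, with widths of 352 to 2394 bp and a median of 700 bp, against a median of 550 bp over the 52765 peaks of chromosomes 1 to 22 and X. In 13 of the 40 the width was over 1 kb, as in 16.4% of all those peaks.

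Peaks lay on both sides of the BCR transcription start, none over the start itself, and went on through the gene up to a sharp end. A 688 bp peak (23179755 to 23180442) stopped just short of the start and covered the small pseudogene BCRP8, and a 1288 bp peak (23180973 to 23182260) followed 1.11 kb inside. The upstream end of RSPH14, which encodes a radial spoke protein and reads the other way, overlaps this start. The 688 bp peak overlapped RSPH14 and not BCR, and the 1288 bp peak overlapped BCR only. Split into 4 equal parts from upstream to downstream, the body held 9, 9, 18 and 4 peaks. The widest were 2394 bp at 38.5 kb (23217814 to 23220207), 2124 bp at 43.99 kb and 2117 bp at 101.75 kb (23281198 to 23283314). The peaks thus grew closer toward the third of these parts. In 10 kb bins the counts were 2, 4, 2, 2, 1 and 4 over the first 60 kb and 6, 6, 5 and 5 from 70 to 110 kb. The pseudogene FBXW4P1 inside BCR had a 1577 bp peak reaching into it, and 3 peaks lay in LOC107985554, an RNA gene inside BCR on the other strand.

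The density in BCR stopped 109.5 kb from the start. The last body peak, 1521 bp wide (23288511 to 23290031), lay at 79.1% of the gene length, inside LOC107985554. The remaining 28.0 kb of the gene held no peak. A gap of 28.1 kb led to a single 592 bp peak (23318127 to 23318718) just past the downstream end, in the pseudogene POM121L11P, and the next gap was 84.5 kb. Gaps of this size are common in the list, since 31.3% of all gaps were as long as 28.1 kb, but those within the gene before this point had been at most 6885 bp.

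Peak counts to either side of this point differed at every distance measured. The 100 kb before it held 38 peak midpoints and the 100 kb after it held 1. At 250 kb the counts were 83 and 2, at 500 kb 116 and 10, and at 1000 kb 150 and 24. Of 52765 peaks, 24 (0.0455%) had at least 25 peaks in the 100 kb to 1 side and at most 1 in the 100 kb to the other, a rule chosen after this step was seen. Among these 24, the BCR peak had the most on its dense side, and the most at any peak outside this BCR step was 30. Another of the 24 is the peak in POM121L11P, which belongs to the same step. The 3′ part of BCR has related copies on chromosome 22, and how reads that align to several places were treated is not given. Peaks were listed in such copies, with 2 in BCRP2 and 4 in BCRP3, and the part of such reads in the empty 3′ end of BCR was not tested.

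The upstream flank of BCR had a density like that of its body. It held 14 peaks in 50 kb (28.0 per 100 kb) with a median width of 731 bp. Of these, 11 had their midpoint in RAB36, which encodes a Golgi-associated Rab GTPase, with widths up to 1616 bp (23160327 to 23161942), and all 14 overlapped RSPH14. The outermost, of 335 bp (23141707 to 23142041), covered the tabulated start of RSPH14. When peaks 10 kb or less apart were joined, 1 run of 54 peaks reached from 23141707 to 23290031 over 148.3 kb. Only 16 of 25958 runs held as many, while 17726 runs were single peaks. A gap of 13.1 kb separated this run from further dense peaks upstream. At 20 kb joining the run grew to 83 peaks, so its upstream edge rests on the joining distance, and its downstream edge did not move because the next gap is longer.

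**Figure D1:**
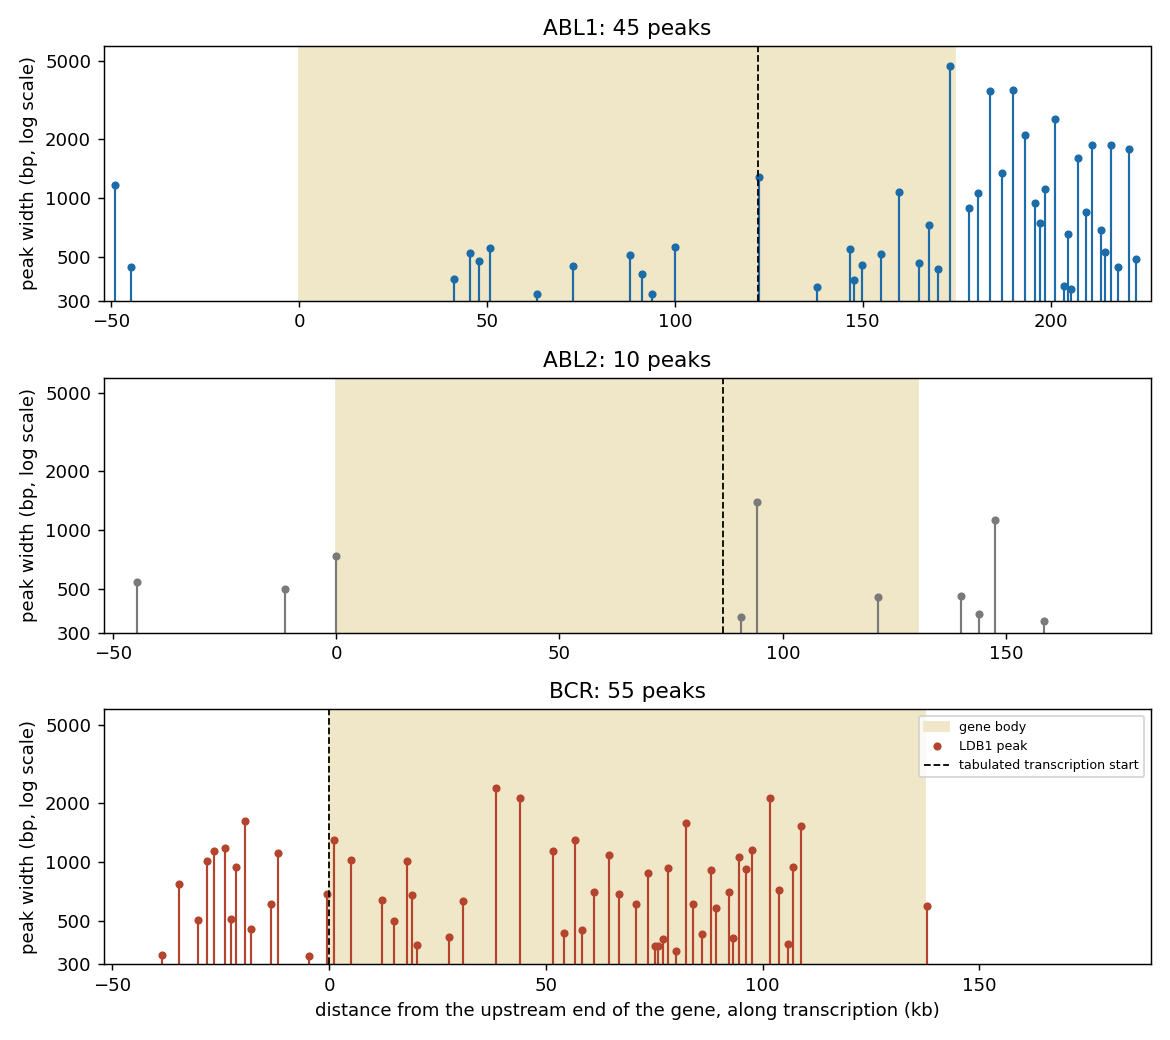
Each point is 1 LDB1 peak, with its width in bp (log scale) against the distance in kb from the upstream end of the gene along transcription. The shaded span is the gene body and the dashed line the tabulated start. BCR peaks end 109.5 kb into the gene, ABL1 peaks begin 41.1 kb into it and widen past its downstream end, and ABL2 has 10 scattered peaks.

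ABL1, on the plus strand of chromosome 9 (130713043 to 130887675, 174.6 kb), showed the opposite layout. Its body held 21 peaks, or 12.03 per 100 kb. Of the genes of at least 100 kb, 112 had as many per 100 kb, a background of 3.34%. The widths ran from 324 to 4743 bp with a median of 482 bp, and 3 of the 21 were over 1 kb. Split into 4 equal parts from upstream to downstream, the gene held 1, 5, 5 and 10 peaks, so the count rose along it.

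The upstream end of ABL1 was empty. From the last peak before the gene (130668143 to 130668589, 447 bp, in PRDM12, which encodes a zinc finger regulator of pain-sensing neurons) there was no peak for 85.5 kb. That gap took in EXOSC2, a gene of the RNA exosome, the upstream end of ABL1 and the first 41.1 kb of its body. Gaps this long are not rare, as 15.3% of all gaps reached this length. The first body peak was 387 bp wide (130754113 to 130754499), followed by peaks of 528, 482 and 561 bp in the same short run. Before the tabulated start there were 10 peaks in all, none wider than 565 bp, in groups of 4, 2 and 4, and 5 of them lay in the long non-coding RNA gene LOC124902288.

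The tabulated ABL1 start carried its own isolated peak. ABL1 is known to start from alternative first exons, and this start is the inner one. The peak of 1292 bp (130834694 to 130835985) covered the start, with its midpoint 0.086 kb past it, and also reached the start of LOC124902287, a non-coding RNA read the other way. It stood alone, 21.3 kb after the previous peak and 14.8 kb before the next. Downstream of it, 11 peaks including this one lay in 52.4 kb (20.98 per 100 kb), against 8.18 per 100 kb in the 122.2 kb before the start. Most of these were narrow, except for 1084 bp at 159.57 kb and the peak at the downstream end.

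The widest peak at any of these loci covered the downstream end of ABL1. It was 4743 bp wide (130883998 to 130888740), and 85 of 52765 peaks (0.161%) were as wide. Past it the density rose again. The downstream flank held 22 peaks in 50 kb, or 44.0 per 100 kb, which covered 58.84% of its length with a median width of 1006.5 bp. Peaks of 3530 and 3595 bp there (130895175 to 130898704, and 130901165 to 130904759) reached into QRFP, which encodes a neuropeptide, and FIBCD1, which encodes a chitin-binding receptor. FIBCD1 held 20 peak midpoints in its 38270 bp. ABL1 as a gene was therefore less dense than the sequence behind it, in contrast to BCR, where the density lay in the gene and before it.

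The run that began in ABL1 went far past the gene. Joined at 10 kb, 94 peaks from 130850794 to 131124696 formed 1 run of 273.9 kb, of which 32 lay in the ABL1 window. Only 7 of all runs held as many. Joined at 5 kb, the largest run at this locus held 34 peaks. The stretch from the first ABL1 body peak to 131337338, another of the 24 step peaks, held 137 peaks in 583.2 kb (23.49 per 100 kb). The 250 kb before it held 14 peaks (5.6 per 100 kb) and the 500 kb after it held 15 (3.0 per 100 kb). For BCR, the 500 kb before its last body peak ended held 23.2 per 100 kb and the 500 kb after it 2.0. The dense sides of these loci had like densities only over these spans, which differ in length and were picked after the steps were seen. Nearer the edges they differed, with 38 peaks at BCR and 12 at ABL1 in 100 kb, and 83 and 63 in 250 kb. The edge inside ABL1 was less abrupt than that in BCR. Its counts before and after were 4 and 12 at 100 kb, 14 and 63 at 250 kb, and 35 and 114 at 500 kb. A later point, the start of the peak over the downstream end of ABL1, had 15 before and 37 after at 100 kb. At 250 kb it had 24 and 85. The stretch was not evenly dense. Bins of 50 kb over the first 150 kb of ABL1 held 3, 6 and 6 peaks. Those from -150 to 0 kb held 1, 2 and 2, but those from -250 to -150 kb held 6 and 8. NUP214, a nuclear pore gene that can itself fuse with ABL1, lies in it with 4 peaks in its 109.1 kb body and 38 with its 50 kb flanks, and bins of 50 kb from 400 to 500 kb past the upstream end of ABL1 held 4 and 3 peaks.

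**Figure D2:**
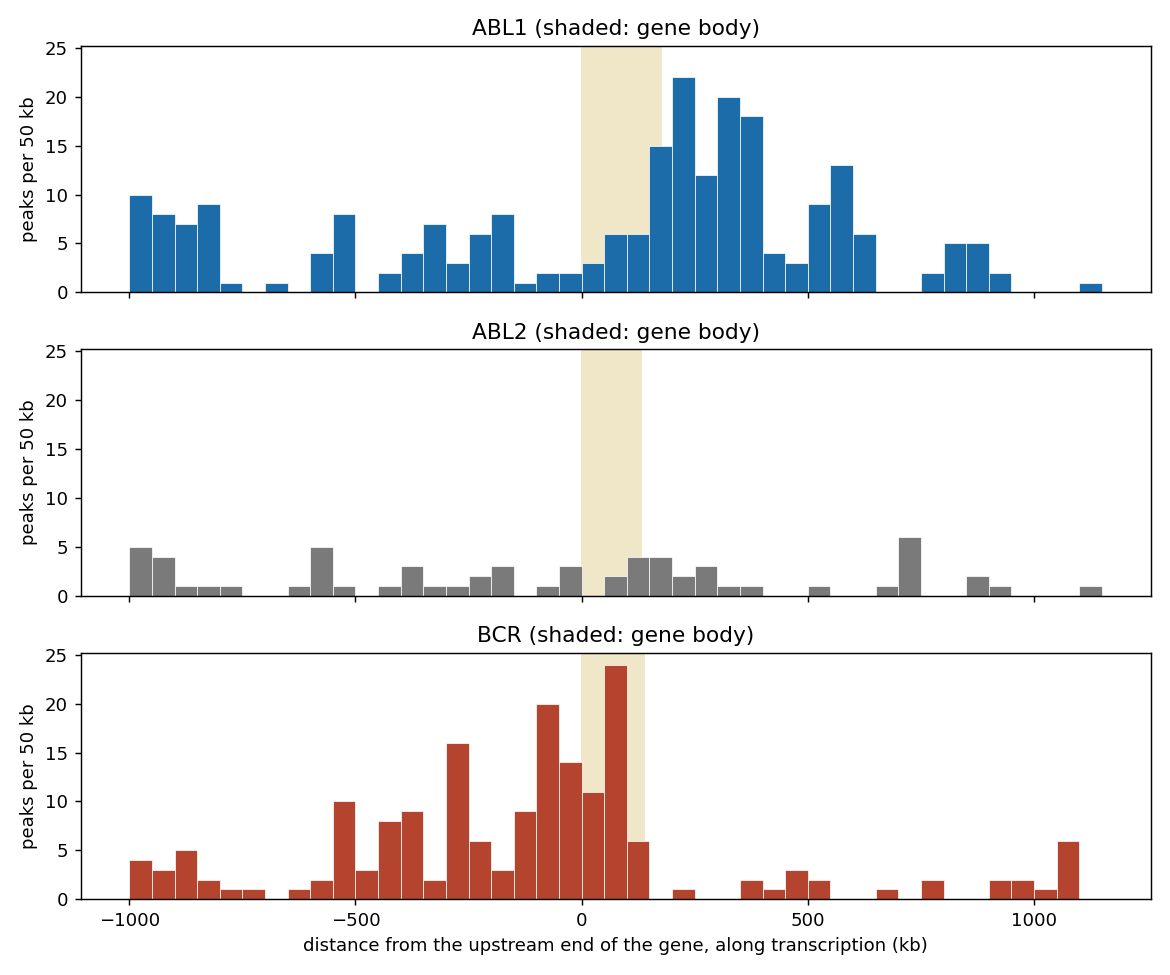
Bars give the number of LDB1 peak midpoints per 50 kb against the distance in kb from the upstream end of each gene along transcription, with the gene body shaded. Counts at BCR reach 24 inside the gene and fall to 0 or 1 per bin over the 200 kb from 150 kb on, while those at ABL1 reach 22 downstream of the gene and those at ABL2 stay at 6 or below.

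ABL2, on the minus strand of chromosome 1 (179099330 to 179229677, 130.3 kb), had few peaks. Its body held 3, or 2.30 per 100 kb, and 19.6% of the genes of at least 100 kb had as many. A peak of 739 bp (179229315 to 179230053) lay across the upstream end of the gene, its midpoint just outside the body, so that 4 peaks touched the gene. This was the 1 peak within 1 kb of an end of ABL2. BCR had 2 such peaks and ABL1 none by midpoint, and 37.6% of protein-coding genes had at least 1.

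Past its upstream end ABL2 was empty for 90.2 kb. The next peaks, going downstream, were 361 bp (179138762 to 179139122) and 1390 bp (179134747 to 179136136), which lay 4.134 and 7.635 kb past the tabulated inner start, and 458 bp (179108183 to 179108640) near the downstream end. That inner start itself had no peak. A gap as long as 90.2 kb was found for 14.6% of all gaps. Downstream of ABL2, a 1128 bp peak (179081725 to 179082852) covered the start of TOR3A, which encodes a torsin ATPase, and peaks of 373 and 462 bp lay inside that gene. The remaining flank peaks were 344 bp in FAM20B, a gene of a sugar kinase, and 500 and 543 bp in sequence outside genes upstream. Around the middle of ABL2 the 100 kb on the downstream side held 7 peaks and the 100 kb on the upstream side 2. At 250 kb the counts were 15 and 6, at 500 kb 18 and 14, and at 1000 kb 28 and 26, so the sides differed most near the gene and came close at larger distances.

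Dense peaks went on past the 50 kb limit downstream of ABL1 and upstream of BCR, where the next 50 kb held 20 peaks. At ABL1 the outermost peaks inside lay 49.1 kb upstream (1171 bp) and 48.1 kb downstream (493 bp), and the nearest outside lay at 50.7 kb (695 bp) and 50.4 kb (1267 bp). For BCR the outermost inside was 38.6 kb upstream (335 bp), and the nearest outside were at 52.2 kb upstream (585 bp) and 85.5 kb downstream (483 bp). For ABL2 the outermost inside lay 28.2 kb past the downstream end (344 bp) and 44.5 kb before the upstream end (543 bp), and the nearest outside at 52.6 kb (778 bp) and 56.0 kb (382 bp).

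Over body and flanks the order of density was BCR, ABL1, ABL2, at 23.16, 16.39 and 4.34 peaks per 100 kb. The median over all protein-coding genes was 2.14, and 1.2%, 4.29% and 33.0% of them were as dense as BCR, ABL1 and ABL2. Both dense loci lie in dense surroundings. Within 5000 kb to either side the density was 7.63 per 100 kb around BCR, 6.56 around ABL1 and 2.04 around ABL2. Chromosome 22 as a whole had 4.18, chromosome 9 had 1.49 and chromosome 1 had 2.15, against 1.79 over chromosomes 1 to 22 and X. Over genes of any length, 54.5% had a peak in the body, and 78.6% of those of at least 100 kb did.

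Genes of like length with the nearest body density came from other regions. For ABL1 these were SLC22A23 on chromosome 6 with 24 peaks, KDM4B on chromosome 19 with 24, and EIPR1 on chromosome 2 with 20, chosen among 431 genes within 10% of its length. For ABL2 they were PCDHA13, RNF217 and HIBCH, each with 3 peaks, among 616 genes. For BCR they were NFATC1 with 36 peaks, ECE1 with 29 and GRM4 with 27, and none of the 587 genes of like length was as dense as BCR. The likeness is the difference in peaks per 100 kb of body in 1 library, which reached 9.37 for GRM4.

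**Figure D3:**
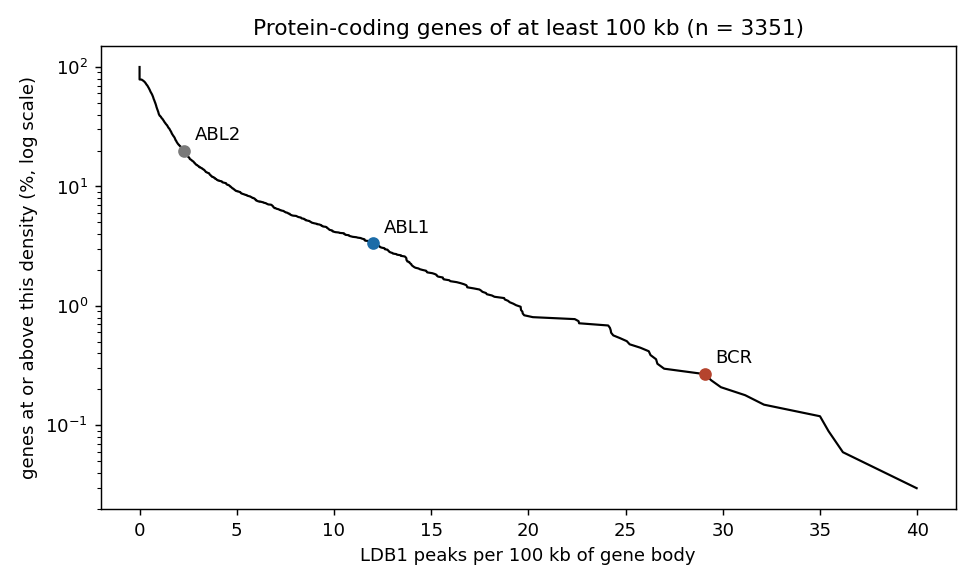
The line gives the percentage (log scale) of the 3351 protein-coding genes of at least 100 kb that have at least a given number of LDB1 peaks per 100 kb of body. BCR lies at 29.08 per 100 kb, ABL1 at 12.03 and ABL2 at 2.30.

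Other genes tied to ABL kinases or BCR by family, function or fusion mostly had peaks. Their shares were somewhat above those for genes at large, a difference that was not tested. Of 81 genes on 4 lists, 77 (95.1%) had a peak in the body or within 50 kb, beside 86.1% of all protein-coding genes, and 39 (48.1%) had a peak midpoint within 1 kb of an end, beside 37.6%. The median of the lists together was 3.87 peaks per 100 kb against 2.14 for all genes. Of the 81, 5 were as dense as ABL1, 1 as dense as BCR and 39 as dense as ABL2. Among all protein-coding genes 4.29%, 1.2% and 33.0% were.

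Among 30 other non-receptor tyrosine kinases, 29 had a peak within 50 kb and 16 at an end. FES, a myeloid kinase gene, was the gene denser than BCR, with 27 peaks (24.26 per 100 kb, the widest 4891 bp), though 4 of these lay in its own body. TNK2, which encodes the kinase ACK, had 30, with 17 in its body. PTK2B and PTK2, the genes of the adhesion kinases PYK2 and FAK, had 26 and 20. FYN, a SRC-family kinase gene, had none. The kinase ABL2, at 4.34 per 100 kb, thus lay at the median of this list (4.36), and ABL1 well above it.

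Of 20 genes of ABL adaptors and substrates, 19 had a peak within 50 kb and 9 at an end. CRKL, which encodes an adaptor that is a main substrate of BCR::ABL1, had 23 peaks (16.87 per 100 kb, the widest 5396 bp) and also lies on chromosome 22. The focal adhesion genes PXN and BCAR1 had 19 and 14, ENAH, an actin regulator, had 14, and WASF1 had none. ABR, the closest relative of BCR, had 3 peaks within 50 kb (0.92 per 100 kb) and 1 in its 226.2 kb body. ABR thus lay below the median of all genes, and BCR far above it.

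All 20 genes of BCR::ABL1 effectors had a peak within 50 kb and 11 had one at an end. Besides CRKL, which is on this list too, STAT5B had 20, INPP5D, a lipid phosphatase gene, had 17, and STAT3 had 15. Of 13 other genes that fuse with ABL1 or BCR, 11 had a peak within 50 kb and 5 at an end. ZMIZ1, a coactivator gene, had 73 peaks (21.0 per 100 kb), RANBP2 had 66 over a body of 1122.8 kb (5.4 per 100 kb), NUP214 had 38 and RET had 24. For NUP214, which lies in the dense stretch past ABL1, 4 of the 38 were in its body. ETV6 and SNX2 had none. STAT5B and STAT3 are neighbours and share a widest peak of 2771 bp, so their counts are not independent.

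**Figure D4:**
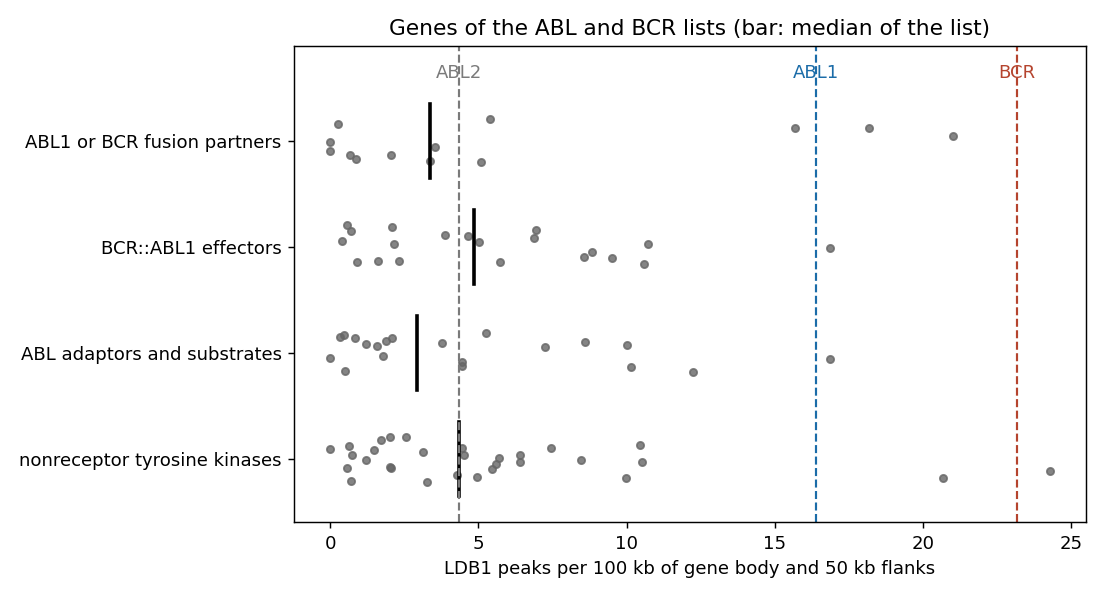
Each grey point is 1 gene of 4 lists, placed by its LDB1 peaks per 100 kb of gene body and 50 kb flanks, with the bar at the median of the list and height within a row without meaning. The dashed lines mark ABL2 at 4.34, ABL1 at 16.39 and BCR at 23.16, and 1 point lies to the right of BCR.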

How the data were processed

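Per the labels, DNA of untreated NB4 cells was tagged by CUT&Tag with the Vazyme kit, 1 library with an LDB1 antibody and 1 with IgG. The submitters' processing notes name hg38, Bowtie2 2.4.1 and MACS2 2.0.10. Its parameters, its threshold, how duplicate and repeated reads were treated, and any control library remain unstated in the labels. Per the file headers, the authors' deposited table holds the chromosome, start, end and length in bp of each LDB1 peak. It gives no height or score, so the depth is unknown, and loose calls or signal from open chromatin cannot be told from strong sites. Length equalled end minus start plus 1 in all 53742 rows.

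Genes and starts came from RefSeq tables of GRCh38.p14, without exons. Peaks were assigned by midpoint with Python 3.11.15 and pandas 2.3.3, a gap ran from one end to the next start, and peaks 10 kb or less apart formed a run. The counting was tested on simulated data (200 of 200 peak lists recovered). The genes and lists were chosen with earlier results of these data known. Named genes were ABL1, ABL2, BCR, ABR, genes in or beside their windows, the 3 genes of like length (within 10%) nearest in body density to each, and the 4 genes with most peaks and up to 3 without on each list. The lineage genes, CDKN2A and the BCR copies were named outside that rule. Points of change in density were picked after seeing the data. Alternatives changed the flank, the overlap rule, the joining distance and the peak widths kept. One further gene list is not reported here.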

Additional observations from a re-analysis of the deposited data

How the results depend on the processing

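Of the 39 alternatives, 17 kept their count within 1.5 times and 22 did not, as follows. With 10 kb flanks the ABL1 locus held 24 peaks and the ABL2 locus 5. Keeping the widest 50% of peaks left 25 at the ABL1 locus and 3 at ABL2, with 7 and 1 in their gene bodies, and the largest runs at ABL1, ABL2 and BCR then held 23, 1 and 23. Keeping the widest 25% left 18, 2 and 24 peaks at the loci of ABL1, ABL2 and BCR, 3, 1 and 18 in the bodies, and largest runs of 17, 1 and 15. Joining at 5 kb gave largest runs of 34 at ABL1 and 29 at BCR, and joining at 20 kb gave 5 at ABL2 and 83 at BCR. Keeping fewer peaks lowers these counts, but the fall was uneven. The BCR body kept 28 and 18 of its 40 peaks in the widest 50% and 25%, and the ABL1 body 7 and 3 of its 21. The order BCR, ABL1, ABL2 by peaks in the body held in each of these width sets. No paired analysis was possible because each antibody had 1 library. No value rests on more than 1 library, and since depth is unknown, an empty stretch means only that no peak was listed there.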
